A study of Mus musculus with 28 samples.

Results

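Nascent RNA was compared between wild-type (WT) and EloA null mouse embryonic stem cells (mESCs) in steady state. The comparison takes 4 of the 28 samples of the series, 2 WT libraries and 2 libraries titled EloA null. Its members are the 11347 of 24984 listed genes whose mean RPKM, reads scaled to gene length and library size, was above 0.5 in either genotype. Both lines are CCE28 cells obtained as a gift, and the labels' treatment text calls the cells CJ7. Both genotypes were grown on inactivated mouse embryonic fibroblasts with LIF, 1 µM of the MEK inhibitor PD0325901 and 3 µM of the GSK3 inhibitor CHIR99021, were depleted of the fibroblasts before the experiment, and received 2 mM bromouridine (BrU) for 10 min with no drug. The allele of the null line and the number of clones are not given in the sources used here. Genotype and cell line therefore cannot be told apart, and p-values measure only the spread between libraries.

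Elongin A is the large subunit of the Elongin complex, which with Elongin B and Elongin C stimulates elongation by RNA polymerase II in vitro and can act as the substrate receptor of a CUL5 ubiquitin ligase. Bru-seq labels RNA made during a short pulse of BrU and sequences what an antibody against the base analogue recovers, so it follows transcription rather than the stock of mature mRNA. mESCs kept in LIF with both inhibitors hold the naive state of pluripotency, in which Pou5f1, Nanog, Sox2, Esrrb and Klf factors form the core network and FGF-ERK signalling is blocked.

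One label stood against its title. For the first library titled EloA null the genotype field reads wild type; its title decided its group. Over the 9947 well-covered genes, its median absolute log2 difference was 0.117 to the other EloA null library, 0.125 to the first WT library and 0.170 to the second WT library. Genes that differed in other libraries of the series placed it with the null line: of 428 well-covered genes higher in the EloA null libraries made after release from flavopiridol, 427 were above both WT libraries in the first EloA null library and 411 in the second. Library sizes ran from 23138348 to 27954236 reads, with a median of 779 reads per gene and library over the tested genes.

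Most genes of the EloA null line stayed close to WT, and the differences that stood out were more often higher than lower. A gene was counted as well covered with a mean of at least 50 reads per library, which 9947 of the 11347 genes reached; 1399 had fewer reads and the reads of 1 could not be worked out. Of the well-covered genes, 429 (4.31%) were more than 1.5-fold higher in EloA null with both null libraries above both WT libraries, and 76 (0.764%) were more than 1.5-fold lower without overlap. Higher genes made up 85.0% of these 505 genes, and 74.9% when each library was centred on its median gene, with 317 higher and 106 lower. Among them 54 were more than 2-fold higher and 14 more than 2-fold lower. The mean RPKM passed the limit of 0.5 only in the genotype with the higher level for 113 of the 429 and 32 of the 76, so these could enter only by differing.

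**Figure D1:**
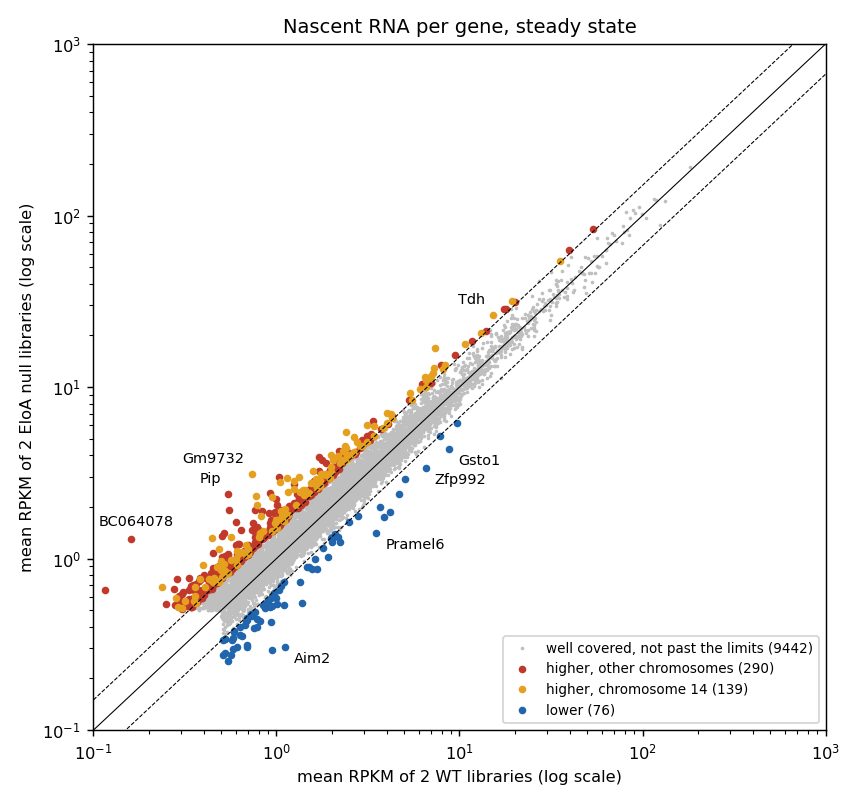
Mean RPKM of 2 EloA null libraries against that of 2 WT libraries for 9947 well-covered genes, both axes on a log scale; dashed lines mark 1.5-fold. Coloured points are the 290 higher genes on other chromosomes, the 139 higher genes on chromosome 14 and the 76 lower genes; most lie just beyond the dashed lines, and BC064078 (8.13-fold higher) and Aim2 (3.62-fold lower) lie farthest out.

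In limma on log2(RPKM + 0.1), 0 of 11347 genes (0%) passed an adjusted p of 0.05, and 2083 had an unadjusted p under 0.05, 1604 of them higher in EloA null. The smallest adjusted p was 0.0636, shared by 8 genes. The count depended on which genes entered the fit: on the well-covered genes alone, limma passed 829 higher (8.33%) and 154 lower genes (1.55%), with a smallest adjusted p of 8.85e-06. With the spread taken from all 12 Bru-seq libraries 94 higher and 38 lower genes passed, and with robust shrinkage 63 and 18. Folds below are ratios of mean RPKM unless a log2 fold change is named, and an adjusted p is that of limma over all tested genes. None of the genes named below passed it in steady state.

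Eloa itself was read in all 4 libraries. The gene (chr4:136003370-136021649 in GRCm38, minus strand, 18.3 kb) was at 1.18 and 1.16 RPKM in the WT libraries and at 1.96 and 1.89 RPKM in the EloA null libraries. It was thus 1.65-fold higher in the null line, with a log2 fold change of 0.67 ± 0.08 (SE) and an adjusted p of 0.0999 in limma. The values of genes with introns were taken to stand for intronic reads, and where the null allele is disrupted is not given. This level therefore does not check the knockout. The other subunits and ligase partners were near WT. Elob and Eloc, which encode Elongin B and Elongin C, had ratios of 1.18 and 0.912, and the ligase genes Cul5, Rnf7, Rbx1, Cul2 and Vhl had ratios between 0.922 and 1.06. Eloa was the 1 gene of the 9 listed that passed 1.5-fold without overlap, against 5.08% of all well-covered genes. The median log2 ratio of the list was 0.01.

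The neighbourhood of Eloa on chromosome 4 was looked at after its values were seen. Of the other 21 well-covered genes within 1 Mb on either side, 3 were counted as higher (14.3%, against 4.31% of all well-covered genes) and 0 as lower: Rcan3, a regulator of calcineurin, Nipal3, a putative magnesium transporter, and the elongation factor gene Tcea3. The remaining 18 were not past the limits, and 7 of them lay below WT. Rcan3 was at 1.93 and 1.62 RPKM in WT and 3.69 and 3.80 RPKM in EloA null. Tcea3, which encodes a TFIIS paralogue, was at 1.26 and 1.10 RPKM in WT and at 1.63 and 2.41 RPKM in EloA null. Its ratio of 1.71 became 1.38 without the second EloA null library. The median log2 ratio of the 21 genes was 0.20, against 0.03 over all well-covered genes.

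The largest ratio belonged to a long noncoding RNA. BC064078 (chr6:128992961-129006647) was at 0.170 and 0.151 RPKM in WT and at 1.31 and 1.30 RPKM in EloA null, on a mean of 240 reads. It was 8.13-fold higher, with a log2 fold change of 2.43 ± 0.14 (SE, adjusted p = 0.0636, limma). Within 0.3 Mb of it, another noncoding gene, 2310001H17Rik, was at 0.111 and 0.122 RPKM in WT and at 0.718 and 0.601 RPKM in EloA null. It was 5.68-fold higher on a mean of 52.2 reads, barely above the limit.

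Pip and Sval2 followed, neighbours on chromosome 6 that encode secreted proteins of one family, prolactin induced protein and seminal vesicle antigen-like 2, known from glandular secretions. Pip (chr6:41847549-41852065) was at 0.604 and 0.490 RPKM in WT and at 2.45 and 2.31 RPKM in EloA null, 4.35-fold higher. Sval2 (chr6:41860307-41864413) was at 0.600 and 0.494 RPKM in WT and at 1.79 and 2.07 RPKM in EloA null, 3.53-fold higher. Both genes had nearly the same level in each WT library. That both null libraries lay above them was required by the choice of genes. Their log2 fold changes were 1.94 ± 0.12 (SE, adjusted p = 0.0636) and 1.65 ± 0.13 (SE, adjusted p = 0.0814) in limma. The 250 bases before each start are shown because the pair moved together; they come from RefSeq on GRCm38.p6 (chr6:41847299-41847548 and chr6:41860057-41860306, plus strand), and capitals mark TATAAA on either strand.
Pip: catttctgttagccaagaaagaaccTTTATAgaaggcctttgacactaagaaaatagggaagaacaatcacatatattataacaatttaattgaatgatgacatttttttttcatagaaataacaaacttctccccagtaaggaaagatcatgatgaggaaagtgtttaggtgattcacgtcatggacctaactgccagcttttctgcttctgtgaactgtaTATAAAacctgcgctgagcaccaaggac
Sval2: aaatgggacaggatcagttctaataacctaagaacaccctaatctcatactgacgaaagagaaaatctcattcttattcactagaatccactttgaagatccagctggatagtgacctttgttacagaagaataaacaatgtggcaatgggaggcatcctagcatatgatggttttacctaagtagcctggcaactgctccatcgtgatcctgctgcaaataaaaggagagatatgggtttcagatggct
The sequence before Pip held TATAAA starting 28 bases before the start and, on the other strand, 225 bases before it, and that before Sval2 held none. Over all 7829 well-covered genes with a RefSeq promoter, 5.82% held TATAAA on either strand in this window.

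Sfi1, Lemd1 and Eif4g3 were the best covered of the 20 higher genes. Sfi1, which encodes a centrin-binding centriole protein, was at 1.12 and 0.947 RPKM in WT and at 3.04 and 2.95 RPKM in EloA null, 2.90-fold higher on a mean of 3308 reads. Its span overlaps Eif4enif1 and a pseudogene and the gene has near-identical copies, so the assignment of its reads is uncertain. Lemd1, a LEM domain gene, was at 0.554 and 0.477 RPKM in WT and at 1.46 and 1.35 RPKM in EloA null, 2.73-fold higher. Eif4g3, a scaffold of cap-dependent translation initiation, was at 0.442 and 0.463 RPKM in WT and at 0.974 and 1.18 RPKM in EloA null. It was 2.38-fold higher on a mean of 4103 reads. Its WT mean of 0.452 RPKM was under the limit of 0.5, so it could enter only through the EloA null libraries.

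Several of the 20 genes encode secreted or cell surface proteins, though the share of such genes among all well-covered genes was not worked out. Inhbb, the beta B subunit of activins and inhibins, was at 0.612 and 0.594 RPKM in WT and at 1.71 and 1.54 RPKM in EloA null, 2.69-fold higher. Ffar2, a receptor for short-chain fatty acids, was 2.68-fold higher, with 0.519 and 0.488 RPKM in WT and 1.41 and 1.29 RPKM in EloA null. Cd37, a tetraspanin of leukocytes, was at 0.740 and 0.792 RPKM in WT and at 1.68 and 2.17 RPKM in EloA null. In all 3 genes both null libraries lay above both WT libraries, which the choice of genes required. The serine protease gene Prss42 was 2.23-fold higher and Wfdc2, a small secreted whey acidic protein domain gene, 2.66-fold higher, the latter with only 0.255 and 0.317 RPKM in WT.

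Enzymes and regulators made up the remainder of the 20 higher genes. The mitochondrial creatine kinase gene Ckmt1 had a ratio of 2.40, the D-lactate dehydrogenase gene Ldhd 2.15, and Use1, a SNARE of the endoplasmic reticulum, 2.17. Ckmt1 overlaps Strc, on a mean of 53.5 reads, and Ldhd overlaps Znrf1, on a mean of 56.75 reads. Of the 20 genes, 7 overlap another gene. Nr2f2, the orphan nuclear receptor COUP-TFII, was at 0.378 and 0.286 RPKM in WT and at 0.853 and 0.689 RPKM in EloA null, 2.32-fold higher. Of the noncoding genes, Ptprtos, which lies opposite Ptprt, had a ratio of 2.63; 4632404H12Rik and AI662270 had lower ones, down to 2.28. Tcf19, a proliferation-linked nuclear factor, rested on 1 library: it was at 1.52 and 1.91 RPKM in WT and at 2.09 and 5.70 RPKM in EloA null. Its ratio of 2.27 became 1.22 without the second EloA null library, and its adjusted p of 0.364 in limma was the highest among the 20 genes.

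**Figure D2:**
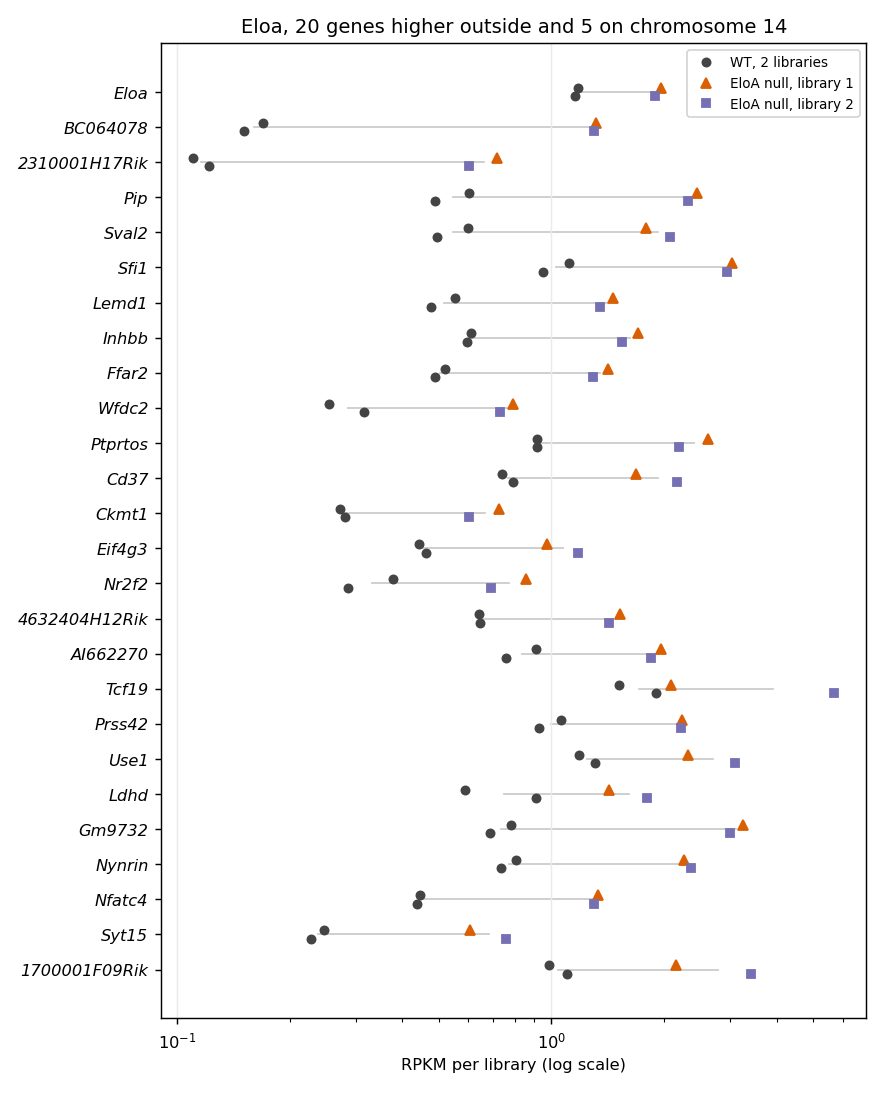
RPKM per library, on a log scale, of Eloa, the 20 genes with the largest ratio outside chromosome 14 and the 5 on chromosome 14 (last rows); circles are the 2 WT libraries, the triangle and the square the EloA null libraries, and grey lines join the means. Both null libraries lie to the right of both WT libraries in every row, which the choice of genes required, and Tcf19 has the widest gap between null libraries.

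On chromosome 14, 139 of 366 well-covered genes (38%) were counted as higher and 0 as lower, with a median log2 ratio of 0.50, and 362 of the 366 had a ratio above 1. Outside it, 290 of 9581 genes (3.03%) were higher and 76 (0.793%) lower, and the median log2 ratio of the other chromosomes lay between -0.05 and 0.13. The noncoding gene Gm9732 had the largest ratio on this chromosome, 4.24, at 0.782 and 0.687 RPKM in WT and 3.24 and 2.99 RPKM in EloA null. Nynrin, a gene derived in part from a retroviral integrase, was at 0.807 and 0.734 RPKM in WT and at 2.26 and 2.36 RPKM in EloA null. Nfatc4, a transcription factor controlled by calcineurin, had a ratio of 2.98, the synaptotagmin gene Syt15 2.87 and 1700001F09Rik 2.66. These 5 genes were chosen for the largest ratios on the chromosome, so their place above its median was set by the choice.

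Aim2 and Cd180 had the largest differences in the other direction. Aim2, a sensor of cytosolic DNA (chr1:173349547-173466040), was at 1.11 and 1.11 RPKM in WT and at 0.316 and 0.296 RPKM in EloA null, on a mean of 784 reads. It was 3.62-fold lower, with a log2 fold change of -1.57 ± 0.12 (SE, adjusted p = 0.0814, limma), and its span overlaps Cadm3. Cd180, a Toll-like receptor relative of B cells (chr13:102693547-102706631), was at 0.979 and 0.923 RPKM in WT and at 0.293 and 0.295 RPKM in EloA null, 3.23-fold lower. Within each genotype the libraries of both genes almost coincided. Both genes passed the limit of 0.5 RPKM only in WT. The list of interferon and innate immune genes did not go one way, with 2 of 24 higher, Irf9 and Nlrp5-ps, 2 lower, Aim2 and Nlrp14, and a median log2 ratio of 0.11. Its share past the limits was 16.7%, against 5.08% of all well-covered genes.

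Pramel6, a leucine-rich repeat gene known from preimplantation embryos and naive mESCs, was at 3.60 and 3.41 RPKM in WT and at 1.41 and 1.43 RPKM in EloA null. It was 2.47-fold lower, with a log2 fold change of -1.25 ± 0.08 (SE) and an adjusted p of 0.0636 in limma, the smallest value any gene reached. As a member of a family with close copies its reads may be split among them.

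Neighbouring zinc finger genes on chromosome 4 were lower. Zfp981 (chr4:146502000-146539395), which encodes a KRAB-type zinc finger protein, was at 3.60 and 4.11 RPKM in WT and at 1.84 and 1.67 RPKM in EloA null, 2.20-fold lower. The noncoding 1700095A21Rik, on the opposite strand and overlapping it, was 2.24-fold lower, with 3.77 and 4.59 RPKM in WT and 1.93 and 1.81 RPKM in EloA null; how far their reads are shared is not known, since the use of strand in counting is not stated. Zfp991 was at 0.879 and 0.986 RPKM in WT and at 0.406 and 0.445 RPKM in EloA null, 2.19-fold lower on a mean of 4235 reads. Zfp992, which lies beside Zfp981 and was named after its values were seen, was 1.94-fold lower, at 6.24 and 6.82 RPKM in WT and 2.93 and 3.80 RPKM in EloA null. Such clusters hold near-identical copies. Most zinc finger genes were not part of this: of 338 well-covered ones 5 were higher and 4 lower, with a median log2 ratio of 0.00. Of all well-covered genes 4.31% were higher and 0.764% lower.

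Ligands, receptors and enzymes were found among the other lower genes. Fgf18, a fibroblast growth factor ligand, was at 0.737 and 0.647 RPKM in WT and at 0.304 and 0.323 RPKM in EloA null, 2.21-fold lower. Tek, the receptor of angiopoietins, was at 0.560 and 0.563 RPKM in WT and at 0.269 and 0.275 RPKM in EloA null, 2.06-fold lower. Pdpn, the mucin-like membrane protein podoplanin, was 2.05-fold lower, and St8sia6, a sialyltransferase, 2.14-fold lower. Gsto1, an omega class glutathione transferase, was the most transcribed of the 15, at 9.51 and 8.08 RPKM in WT and 4.43 and 4.29 RPKM in EloA null. Dnajc5b, a cysteine string protein gene, had a WT level 2.29 times that of EloA null, Gm13752 2.51 times, Gm525 2.00 times and 1110019D14Rik 1.98 times. Over the 15 genes the adjusted p in limma lay between 0.0636 and 0.183.

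**Figure D3:**
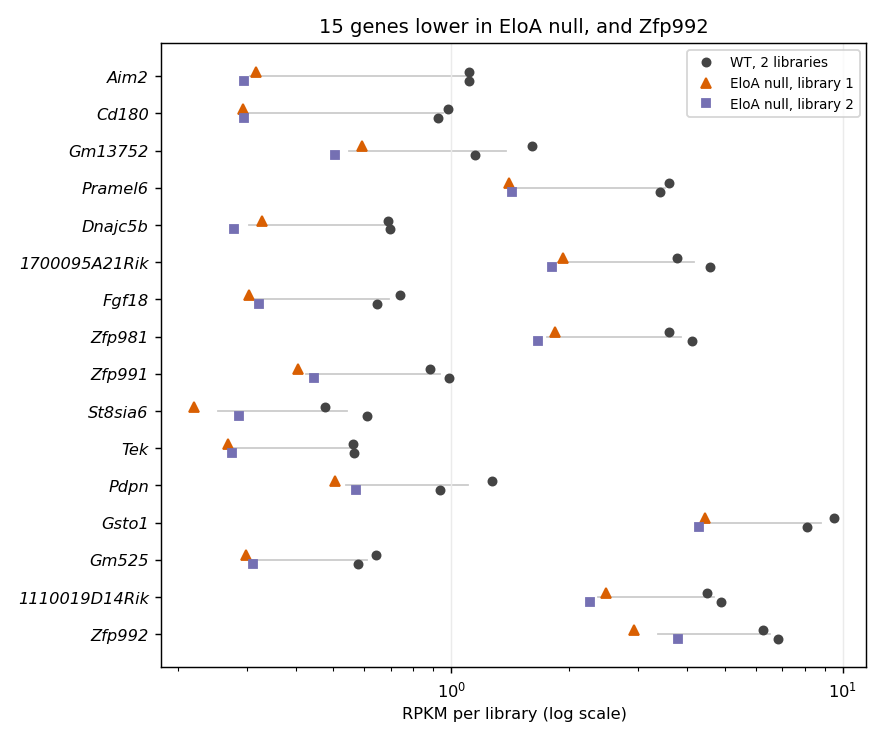
RPKM per library, on a log scale, of the 15 genes with the largest ratio of WT to EloA null and of Zfp992; circles are the 2 WT libraries, the triangle and the square the EloA null libraries, and grey lines join the means. Aim2, Cd180, Pramel6 and Tek have libraries that nearly coincide within a genotype, while Gm13752 and Pdpn are spread in WT.

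Another set of lower genes nested in one locus was noted after the values were seen. Med12l on chromosome 3, a Mediator paralogue, spans the purinergic receptor genes P2ry12 and P2ry14, the orphan receptor gene Gpr171 and F630111L10Rik, all lower past the limits. The WT level was 1.58 times that in EloA null for Med12l, 1.53 for P2ry12, 1.58 for P2ry14, 1.80 for Gpr171 and 1.85 for F630111L10Rik. The spans overlap, so these are not independent values.

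Of 97 gene lists written, those with at least 10 well-covered members were ranked by their share past the limits. The 8 families with the highest shares were picked in this way, and the shares were not tested. Some counted members, such as Jund, Lif, Nr2f2, Fgf18 and Cd180, had a mean above 0.5 RPKM only in the genotype with the higher level. Such genes could enter the share of a list only by differing. The immediate early genes, which answer growth factors within minutes, and the growth factor ligands had the highest share. Of 15 well-covered immediate early genes 5 were higher and 0 lower (33.3%, against 5.08% of all well-covered genes in either direction), and the median log2 ratio was 0.22. Jund was at 0.364 and 0.535 RPKM in WT and at 0.706 and 1.06 RPKM in EloA null, a ratio of 1.96 on a mean of 50 reads. Srf, the serum response factor, was at 2.73 and 2.38 RPKM in WT and at 4.47 and 3.60 RPKM in EloA null, a ratio of 1.58. Fosl1 had a ratio of 1.67, the orphan nuclear receptor gene Nr4a1 1.59 and Ier2 1.54. The classic member Fos was read at 0.294 and 0.726 RPKM in WT and at 0.506 and 0.363 RPKM in EloA null, with overlap. After the trend of each library with GC content was removed, 0 of the 5 genes were still past the limits.

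Of 15 growth factor ligands 4 were higher and 1 lower (33.3%), with a median log2 ratio of 0.38. Vegfa, the endothelial growth factor, was at 1.86 and 1.89 RPKM in WT and at 3.41 and 3.76 RPKM in EloA null, 1.91-fold higher. Lif, the cytokine that holds mESCs in self-renewal, was at 0.260 and 0.324 RPKM in WT and at 0.585 and 0.563 RPKM in EloA null, although LIF was also supplied in the medium. Gdf15, a stress-induced ligand, had a ratio of 1.96 and Fgf17, on chromosome 14, 2.09, both on a mean of 50 reads. All 4, and the lower Fgf18, stayed past the limits when the GC trend was removed. In the 8 recovery libraries described below 0 ligands passed, and Vegfa, Lif, Gdf15 and Fgf17 had adjusted p-values between 0.0862 and 0.876 in limma.

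Nuclear receptors followed with 6 of 21 higher and 0 lower (28.6%, against 5.08% of all well-covered genes). Their median log2 ratio was 0.36. Rarg, a retinoic acid receptor, was at 0.650 and 0.547 RPKM in WT and at 1.06 and 1.35 RPKM in EloA null, 2.02-fold higher. Nr1h2, a liver X receptor, had a ratio of 1.81, Nr0b1 1.59 and the thyroid hormone receptor gene Thra 1.52, beside Nr2f2 and Nr4a1 above. Without the GC trend 3 of the 6 remained past the limits, Nr0b1, Nr2f2 and Rarg.

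In the FGF-ERK list, whose pathway the MEK inhibitor blocks, 4 of 20 genes were higher and 1 lower (25%, against 5.08% of all). The ETS factor genes Etv1 and Etv4 had ratios of 1.66 and 1.56, and the feedback inhibitor Spry4 1.65, at 1.38 and 1.46 RPKM in WT and 1.93 and 2.77 RPKM in EloA null. Without the second EloA null library the ratio of Spry4 was 1.36. Spred1, another inhibitor of the pathway, went the other way, at 2.29 and 2.71 RPKM in WT and 1.66 and 1.60 RPKM in EloA null. The well-transcribed Etv5 had a ratio of 0.987 and the ERK phosphatase gene Dusp6 1.07. The list's median log2 ratio was 0.18, and 1 of the 5 genes, Etv1, remained past the limits without the GC trend.

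Of the other lists with a high share, the LY6 and CD surface antigens were split. Their median log2 ratio was -0.03, with 3 of 19 higher and 2 lower (26.3%, against 5.08% of all well-covered genes). Beside Cd37 and Cd180 these were the tetraspanin gene Cd63 at 1.69-fold and the stem cell antigen gene Ly6a at 1.67-fold, and Cd300ld with a WT level 1.59 times that of EloA null. Cytokines, chemokines and their receptors had 6 of 24 members higher and 0 lower (25%). Of these, Il17d, Tnfrsf19 and Tnfrsf10b lie on chromosome 14, with ratios of 1.99, 1.65 and 1.59. Tnfrsf8, the CD30 receptor, had a ratio of 1.55, and Tnfsf12, also with 1.55, overlaps Tnfsfm13, the sixth gene, which is counted as well. When each library was centred 3 of the 6 remained past the limits, all on chromosome 14.

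WNT targets and feedback genes had 3 of 14 members higher (21.4%, against 5.08% of all well-covered genes) and a median log2 ratio of 0.03. Notum, a secreted lipase that inactivates WNT ligands, was at 2.14 and 2.49 RPKM in WT and at 3.86 and 3.92 RPKM in EloA null. Porcn, which lipidates WNT ligands, had a ratio of 1.56 and the secreted inhibitor Sfrp2 1.53. The direct target Axin2 did not show a difference, with 0.951 and 0.852 RPKM in WT and 0.818 and 0.985 RPKM in EloA null, and the GC correction left 0 of the 3 past the limits. Serpins and proteases had 3 of 21 higher and 2 lower (23.8%). The cathepsin genes Ctsf, at a ratio of 2.00, and Ctsc, with a WT level 1.91 times that of EloA null, went opposite ways. Prss16, a thymic serine protease, had a ratio of 1.57, and Serpinb1a had 1.55 times the EloA null level in WT.

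**Figure D4:**
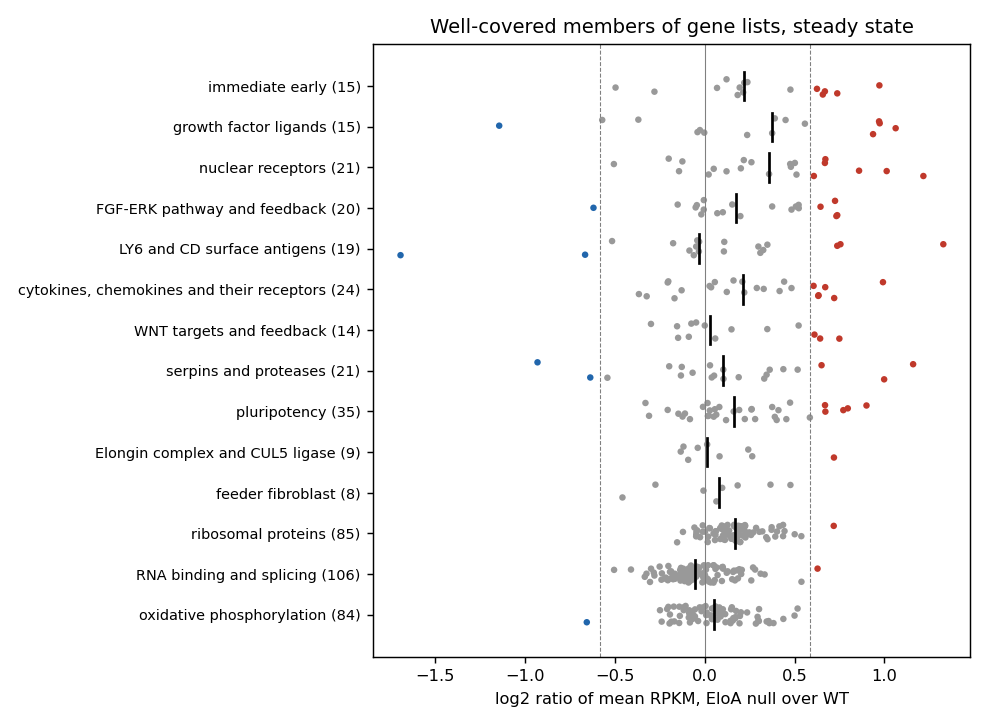
Log2 ratio of mean RPKM, EloA null over WT, for each well-covered member of 14 gene lists (number of members in brackets); red and blue points are past 1.5-fold without overlap, black bars are medians and dashed lines mark 1.5-fold. The 8 lists at the top have the highest shares of red and blue points. Ribosomal proteins, splicing factors and oxidative phosphorylation have 1 such point each, and 74 of the 85 ribosomal protein genes lie above 0. For comparison, the median is 0.03 over all well-covered genes and 0.18 over those of at most 5 kb.

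In the pluripotency list, Nanog, Sox2, Esrrb and Klf4 were not past the limits while Pou5f1 and Klf2 were past the limits. Of 35 well-covered genes, 5 were higher and 0 lower (14.3%, against 5.08% of all well-covered genes in either direction). A ratio above 1 was found for 27, and the median log2 ratio was 0.16, against 0.03 over all well-covered genes. Tdh, the threonine dehydrogenase that mESCs depend on, lies on chromosome 14 and was at 15.6 and 14.8 RPKM in WT and at 26.5 and 26.2 RPKM in EloA null, 1.74-fold higher. Lin28a, an inhibitor of let-7 maturation, had a ratio of 1.87 at 0.348 and 0.358 RPKM in WT, so it could enter only through the EloA null libraries. Pou5f1, which encodes OCT4 and lies beside Tcf19 on chromosome 17, was at 7.36 and 8.48 RPKM in WT and at 10.6 and 16.5 RPKM in EloA null. As for Tcf19 its second null library stood apart: the ratio of 1.71 became 1.34 without that library. Klf2 behaved alike, at 10.1 and 13.2 RPKM in WT and 14.8 and 22.3 RPKM in EloA null, a ratio of 1.59 that became 1.27. Nanog, Sox2, Esrrb and Klf4 had ratios of 1.21, 1.14, 1.04 and 1.01, and the naive markers Zfp42 and Tfcp2l1 had 0.918 and 0.904. None of these 6 was past the limits, and the direction of Sox2, Esrrb and Klf4 turned when the GC trend was removed. Of the 5 higher genes, Lin28a, Tdh and Nr0b1 remained past the limits without it. When the trend with gene length was removed instead, Lin28a and Tdh remained.

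Markers of other states were few and low. Of all well-covered genes 4.31% were higher and 0.764% lower, and the shares of these small lists were not tested. Of 21 neural progenitor markers 5 were expressed and 4 well covered, and 3 of these were higher: Sox21 (on chromosome 14, at 1.14 and 1.14 RPKM in WT and 2.82 and 3.04 RPKM in EloA null), Nkx2-2 at a ratio of 1.72 and Tubb3 at 1.60. The defining markers Sox1 and Pax6 had means under the limit of 0.5 RPKM in both genotypes, with single libraries between 0.0597 and 0.523 RPKM. Without the GC trend Sox21 alone of the 3 remained past the limits. The summed RPKM of the list was 5.25 and 4.95 in WT and 7.81 and 8.65 in EloA null. For the formative and primed state 2 of 11 genes, Etv4 and Zic2, were higher, 1 of 8 outside chromosome 14, where Zic2 lies, with summed levels of 46.2 and 47.5 RPKM in WT and 55.9 and 58.0 RPKM in EloA null, and 0 of the 2 remained past the limits when each library was centred. Among germline genes Rec8, a meiotic cohesin gene on chromosome 14, was the 1 of 12 past the limits (8.33%), with a ratio of 1.78. A single gene of 12 is not read as a difference from all genes.

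Counts in steady state were 0 in either direction for the markers of mesoderm (3 well-covered genes), primitive endoderm (5) and trophoblast (4). These lists are too small for 0 to stand apart from the 5.08% of all well-covered genes. Summed levels of the mesoderm list were 5.74 and 5.65 RPKM in WT and 6.93 and 7.70 RPKM in EloA null. For primitive endoderm they were 19.6 and 19.6 RPKM against 17.6 and 18.8 RPKM, and for trophoblast 8.98 and 8.57 RPKM against 9.76 and 9.66 RPKM. Of the 3 well-covered mesoderm markers, 2 lie outside chromosome 14. In the limma fit over 3 conditions described below, 2 of 4 expressed mesoderm markers rose and 3 of 5 primitive endoderm markers fell. Of all tested genes 11% rose and 9.94% fell in that fit. In the 8 recovery libraries alone 0 mesoderm markers rose and 1 primitive endoderm marker fell. Of 33 markers of 2-cell-like cells 0 were expressed, and their summed level was 1.90 and 1.42 RPKM in WT and 0.668 and 0.556 RPKM in EloA null, lower in both null libraries. Markers of feeder fibroblasts were expressed in 8 of 32 cases, with summed levels of 28.3 and 27.9 RPKM in WT and 29.7 and 29.7 RPKM in EloA null and 0 genes past the limits. Col1a1 was at 0.419 and 0.577 RPKM in WT and at 0.413 and 0.521 RPKM in EloA null. In bulk samples such as these, a change in the number of cells of a type cannot be told apart from a change in each cell.

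Of all well-covered genes 5.08% were past the limits in either direction. The large families of housekeeping genes had few members past them. The share was 1.18% for ribosomal protein genes, 0.943% for RNA binding and splicing genes and 1.19% for oxidative phosphorylation. Of 85 ribosomal protein genes 1 was higher, Rpl15 on chromosome 14. Their median log2 ratio was 0.17, and 74 of the 85 lay above 0. Short genes of any kind also lay above 0, with a median of 0.18 over well-covered genes of at most 5 kb and 0.099 over those of 5 to 20 kb. How far gene length bears on the ribosomal protein genes was not tested. Of 106 RNA binding and splicing genes 1 was higher, with a median of -0.05. Of 84 genes of oxidative phosphorylation and its assembly 1 was lower, with a median of 0.05. DNA repair genes (44), DEAD and DEAH box helicases (48), deubiquitinases (50) and histone acetylation enzymes (36) had 0 in either direction. Among transcription machinery, the 14 genes of the super elongation complex and P-TEFb and the 27 RNA polymerase subunits also had 0, and of 45 Mediator and Integrator genes 1 was lower. At a share of 5.08%, lists of 14 to 50 genes would hold only a few such genes. The counts of these smaller lists are therefore not read as a difference from all genes. Among solute carriers, another large family, 13 of 156 were higher (8.33%, against 4.31% of all well-covered genes) and 0 were lower, and 10 of 150 were higher outside chromosome 14.

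The higher and the lower genes differed in their features from the well-covered genes as a whole. Higher genes outside chromosome 14 were shorter, with a median span of 12.2 kb against 23.4 kb over all well-covered genes, and richer in GC, with a median of 51.3% against 45.4%. Lower genes were longer, with a median of 37.6 kb, and poorer in GC, with 42.5%. The share of higher genes went from 0.655% among 1221 genes of at most 40% GC to 11.6% among 432 genes above 55% GC, and the median log2 ratio from -0.15 to 0.32. With the GC trend of each library removed, 250 genes were higher and 75 lower, of which 226 and 64 were among those counted above. With the trend of each library with gene length removed instead, 304 were higher and 99 lower, of which 286 and 72 were among those counted above. Of the 40 genes selected by their ratio, Tcf19 was the 1 that left the limits under either correction. Genes transcribed at a mean of at most 1 RPKM were past the limits more often, with 8.24% higher and 2.28% lower, than genes above 10 RPKM, with 3.69% and 0%. The limit of 0.5 RPKM bears on this, since 113 of the 429 and 32 of the 76 could enter only by differing. How far it made this contrast was not tested.

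Short sequence motifs in the 250 bases before the start, from RefSeq promoters on GRCm38.p6, gave a further description. GGGCGG or its complement was found before 55.7% of 212 higher genes outside chromosome 14, 44.6% of 56 lower genes and 60.6% of all well-covered genes with a promoter in the table. CCAAT, on either strand, was found before 27.8% of these higher genes, 39.3% of the lower genes and 37.3% of all well-covered genes with a promoter, and the E box CACGTG before 8.96%, 5.36% and 9.13%.

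Libraries made after release from flavopiridol, an inhibitor of P-TEFb, gave the genotype difference in samples that the ratio rule did not use. They were labelled for 5 or 10 min after 60 min in 1 µM of the drug, with 2 libraries per genotype and time. In limma over these 8 libraries, with time as a block, 457 of the 11347 genes were higher (4.03%) and 380 lower (3.35%) at an adjusted p under 0.05. Of the 429 genes higher in steady state, 186 rose and 0 fell by this test, and of the 76 lower genes 55 fell and 0 rose. Outside chromosome 14, 93 of 290 higher genes passed (32.1%). Over well-covered genes that were not past the limits in steady state, 242 of 9442 were higher (2.56%) and 316 lower (3.35%).

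Of the 20 higher genes 12 rose in the recovery libraries and of the 15 lower genes 12 fell. BC064078 was at 0.0476 and 0.0617 RPKM in WT and 0.525 and 0.602 RPKM in EloA null in the 5-min libraries, and at 0.154 and 0.124 RPKM against 1.57 and 1.37 RPKM in the 10-min libraries. Its log2 fold change over the 8 libraries was 2.41 ± 0.15 (SE, adjusted p = 0.00153, limma). Aim2 was at 0.733 and 0.672 RPKM in WT and 0.166 and 0.138 RPKM in EloA null at 5 min, and its log2 fold change was -1.76 ± 0.10 (SE, adjusted p = 0.00153, limma). Pramel6 fell with -1.86 ± 0.21 (SE, adjusted p = 0.00871, limma) and Gsto1 with -1.40 ± 0.11 (SE, adjusted p = 0.00363, limma). Eif4g3 rose by 1.09 ± 0.07 (SE, adjusted p = 0.00153, limma) on the log2 scale and Sfi1 by 1.98 ± 0.13 (SE, adjusted p = 0.00178, limma).

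Some of the named genes did not pass there. Pip and Sval2 were 1.17 ± 0.33 and 0.86 ± 0.25 higher on the log2 scale (SE, adjusted p = 0.0834 and 0.0919, limma). These values pool unlike times, with log2 fold changes of 1.97 and 1.39 at 5 min and 0.37 and 0.32 at 10 min. At 10 min both genes were near the floor. Pip was at 0.0269 and 0 RPKM in WT and 0.0381 and 0.0532 RPKM in EloA null, and Sval2 at 0 and 0 RPKM against 0.0423 and 0.00985 RPKM. Wfdc2, Nr2f2, Use1, Ldhd, Tcf19 and 2310001H17Rik did not pass, nor did Fgf18, Gm13752 and 1110019D14Rik among the lower genes. Eloa passed, 0.81 ± 0.13 higher on the log2 scale (SE, adjusted p = 0.0181, limma), as did Tdh, Lin28a, Rarg, Etv1, Spry4, Notum, Sox21 and Ctsf, and the lower genes Zfp981, Zfp991, Zfp992, Ctsc and Spred1. Among the immediate early genes, Jund, Fosl1, Nr4a1, Srf and Ier2 had adjusted p-values between 0.0995 and 0.960 in limma.

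**Figure D5:**
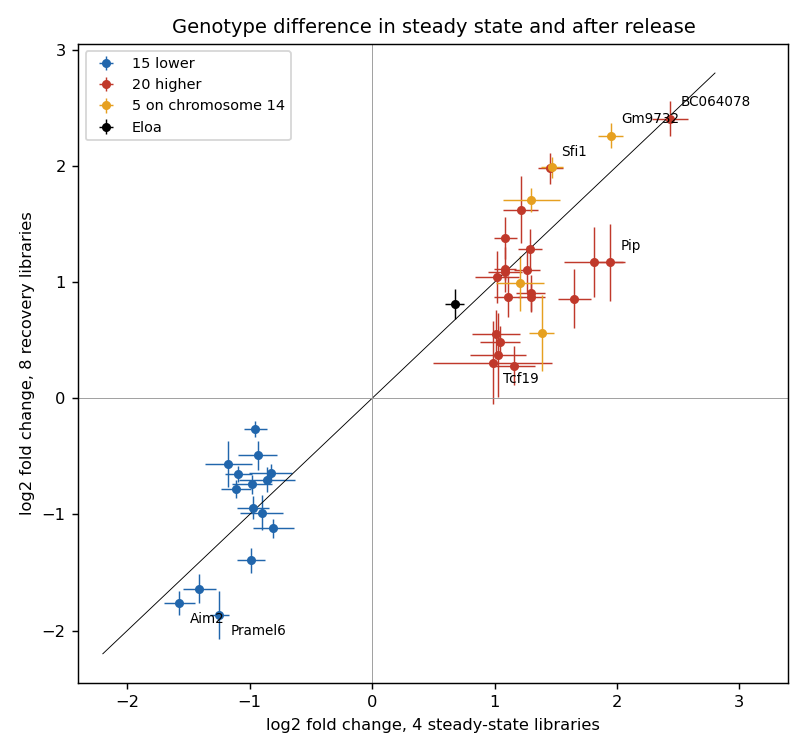
Log2 fold change of EloA null against WT over 8 recovery libraries against that over 4 steady-state libraries for Eloa, the 20 higher and 15 lower genes and the 5 on chromosome 14; bars are SE from limma and the line marks equal values. All 40 genes have the same sign in both, and Pip and Pramel6 lie below the line.

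In the fit of all 12 libraries, with condition as a block and differences taken within tables that were normalized separately, 1247 genes rose (11%) and 1128 fell (9.94%) in EloA null. By this test 327 of the 429 higher genes rose and 70 of the 76 lower genes fell. In the lists, 7 nuclear receptors rose and 1 fell of 21 expressed, 6 and 1 of 22 FGF-ERK genes, 4 and 3 of 17 growth factor ligands, and 2 and 2 of 19 immediate early genes. For pluripotency 7 of 37 rose and 4 fell, and for the Elongin list 2 of 9 rose, Eloa and Elob, and 0 fell. Since this fit contains the steady-state libraries that chose the genes, its values are a description for the named genes.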

How the data were processed

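The 12 Bru-seq libraries hold 4 steady-state libraries, which gave the comparison, and 8 recovery libraries. The authors aligned paired-end reads to mm10 and dm3 with Bowtie2 (2.3.4.3), kept unique reads, counted them in RefSeq genes with featureCounts (1.6.1) and deposited RPKM values from edgeR for each replicate, in 1 table per condition. The library kit was directional and strands were separated with SAMtools; whether counting used strand, the RefSeq release and any scaling to the Drosophila spike-in are not given in the sources used here. Reads were recovered from the RPKM steps: in 96.2% of 10145 intron-containing expressed genes the values were whole reads (within 0.02) in all 12 libraries for the intron length plus 1 exon base on each side, so they stand for intronic reads. Positions came from GRCm38.p6 by symbol (24420 genes) or older symbol (423); 141 were not matched.

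Samples were grouped by title. A limma fit (3.58.1, R 4.3.3) used log2(RPKM + 0.1), a trend of the variance with level and Benjamini-Hochberg adjustment over 11347 genes, and was tested on simulated data. An exact test of 2 against 2 libraries cannot go below p = 0.333, so genes were also counted by ratio and lack of overlap. Named were Eloa, the 20 higher and 15 lower genes with the largest ratio outside chromosome 14, 5 on it, and up to 4 genes past the limits in each marker, Elongin or pluripotency list and in the 8 lists with the highest share past the limits among at least 10 well-covered members. The other genes and lists named were chosen after their values were seen. After the values were seen, 32 genes that 9 lists had caught by symbol alone, such as the S6 kinases among ribosomal proteins, were left out of them; 0 were past the limits. All members, lists and rules were chosen with earlier results of these data known. The 16 CUT&RUN and ChIP samples were not analysed here.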

Additional observations from a re-analysis of the deposited data

How the results depend on the processing

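The number of genes past an adjusted p of 0.05 in limma stayed 0 with a pseudocount of 1 or 0.01, without a filter, after centring, quantile normalization or removal of the GC trend (added after seeing the data) and without any 1 library (0 to 0, smallest adjusted p 0.121 to 0.255), but became 983 on genes with at least 50 reads, 132 with the spread from all 12 libraries and 81 with robust shrinkage; the cause was not tested. The count of 429 higher genes became 260 with at least 200 reads, 708 with no limit on reads (170 lower), 54 at 2-fold (14 lower) and 250 without the GC trend, and 391 to 625 without 1 library. Without the gene length trend it was 304 (99 lower). The count of 76 lower genes lay between 75 and 138 without 1 library, the latter without the first EloA null library, whose genotype label is wild type. Leaving out genes that overlap another gene, also added later, left 312 higher and 57 lower. The 2375 genes of the fit over 3 conditions became 837 in the 8 recovery libraries alone and 1791 to 1977 without 1 steady-state library. With the replicate number as a block, 0 genes passed in steady state and 2617 over 3 conditions; the labels do not pair the libraries, and same-numbered deviations correlated with r = 0.17 across genes, from 2 pairs. Of the named genes, the ones past the limits kept the sign of their log2 fold change under the 8 alternatives run for single genes; the sign of some genes near WT turned. With the GC trend removed the log2 fold change of Sox2 was -0.027, of Esrrb -0.083, of Klf4 -0.21 and of Rbx1 -0.0065, and after centring that of Esrrb was -0.0085, of Klf4 -0.040 and of Rbx1 -0.044. Without 1 library it ran from -0.64 to 0.43 for Fos, -0.020 to 0.12 for Esrrb, -0.059 to 0.10 for Klf4, -0.14 to 0.17 for Rbx1, -0.085 to 0.013 for Vhl, -0.24 to 0.52 for Dusp6, -0.059 to 0.023 for Etv5 and -0.12 to 0.12 for Axin2. Genes under 50 reads per library were too shallow to be described singly.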
